A study of Mus musculus with 2 samples.

Results

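The genes described here are the proteases that cut the extracellular matrix or shed proteins from the cell surface, together with their inhibitors. They were taken as every gene on an Illumina mouse bead array whose platform symbol began with Mmp, Adam or Timp followed by a number, or with Adamts, plus Reck. This gave 70 genes on 104 probes, out of 16593 named genes and 25697 probes. The tissue was tibialis anterior muscle, a muscle of the lower leg, of C57/BL6 mice. Each animal received either vehicle or DHT, read here as the androgen dihydrotestosterone, under the skin at 10 days of age, and muscle was removed 24 h later. There was 1 array per treatment and no replicate, so no test, p-value or error between animals can be given, and each value describes these 2 arrays. How many animals gave the RNA of an array, and their sex, are not stated in the labels.

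Matrix metalloproteinases (MMPs) are zinc enzymes that are made as inactive precursors and cut collagens and other matrix proteins, some after secretion and some while anchored in the membrane. ADAMs are membrane proteins with a related protease domain, several of which release growth factors, cytokines and receptors from the cell surface, while others have lost the catalytic site and serve in adhesion. ADAMTS enzymes are secreted and cut proteoglycans and procollagens. TIMPs and the membrane-anchored protein Reck restrain them. In growing muscle these enzymes act in the connective tissue around fibres, at vessels, and around fusing myoblasts.

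The promoters of 4 genes are printed because they belong to the genes on which the MMP results turn. Mmp13, Mmp3 and Mmp1a lie in a row of 9 MMP genes of this set on chromosome 9. Mmp13 was lower and Mmp3 higher on the DHT array, while Mmp1a differed by less than 1.5-fold. Mmp14 had the largest difference among the MMPs. The motifs were chosen after the differences were seen, and the printed promoters after the matches were seen too: Timp4, whose window held no match to these motifs, was left out in favour of Mmp1a. Each sequence runs from 250 bases before to 50 bases after the start of the gene in RefSeq (GRCm38.p6), and capitals mark matches to any of 4 motifs, searched on both strands. The AP-1 motif was spelled TGANTCA. The half-site of steroid receptors such as the androgen receptor was spelled AGAACA. The GC box was spelled GGGCGG, and the TATA box was spelled TATAAA. The Mmp13 window is chr9:7272264-7272563, that of Mmp3 chr9:7445572-7445871, that of Mmp1a chr9:7463891-7464190 and that of Mmp14 chr14:54431348-54431647, all on the plus strand.
Mmp13: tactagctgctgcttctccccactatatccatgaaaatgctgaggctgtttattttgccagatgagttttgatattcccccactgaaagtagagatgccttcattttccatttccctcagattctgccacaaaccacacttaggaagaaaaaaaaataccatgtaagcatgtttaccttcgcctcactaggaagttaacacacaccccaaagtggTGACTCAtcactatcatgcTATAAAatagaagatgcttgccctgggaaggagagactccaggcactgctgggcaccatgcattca
Mmp3: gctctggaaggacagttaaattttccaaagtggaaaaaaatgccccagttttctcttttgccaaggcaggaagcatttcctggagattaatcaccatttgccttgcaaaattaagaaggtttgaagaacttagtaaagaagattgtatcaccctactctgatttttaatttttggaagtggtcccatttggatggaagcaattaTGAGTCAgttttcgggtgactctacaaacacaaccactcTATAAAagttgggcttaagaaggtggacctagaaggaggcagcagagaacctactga
Mmp1a: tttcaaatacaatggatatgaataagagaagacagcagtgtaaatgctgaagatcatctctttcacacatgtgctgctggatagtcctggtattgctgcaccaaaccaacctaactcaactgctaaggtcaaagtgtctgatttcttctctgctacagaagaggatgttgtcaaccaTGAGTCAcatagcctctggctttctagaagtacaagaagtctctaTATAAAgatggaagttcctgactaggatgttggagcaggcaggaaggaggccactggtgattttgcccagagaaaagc
Mmp14: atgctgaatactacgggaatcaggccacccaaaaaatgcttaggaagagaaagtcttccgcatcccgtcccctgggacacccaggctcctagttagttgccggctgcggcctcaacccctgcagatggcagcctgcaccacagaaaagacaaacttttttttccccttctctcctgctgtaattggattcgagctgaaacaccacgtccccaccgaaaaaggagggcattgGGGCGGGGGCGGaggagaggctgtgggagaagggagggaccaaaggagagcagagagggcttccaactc

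The windows of the chromosome 9 genes each held an AP-1 match and a TATA box, with the AP-1 match beginning at -35 in Mmp13, -46 in Mmp3 and -73 in Mmp1a relative to the annotated start. Mmp14 had neither, and held a pair of adjoining GC boxes that begin at -19 and -13. None of the 4 windows held the steroid half-site letters, which says nothing of binding elsewhere. A promoter was available for 43 of the 70 genes, in 48 windows. AP-1 letters were in windows of 8 of the 9 chromosome 9 genes and of 5 of the other 34, where 7.81% of all 32851 promoter windows of this length held them. The TATA box letters were in windows of 9 of 9 and 6 of 34 genes (13.6% of all windows), and GC boxes in windows of 0 of 9 and 21 of 34 (35.7%). Half-site letters were found for 3 of 9 and 5 of 34 genes (19.0%). These matches describe the letters and are not evidence of binding.

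The deposited signal of a probe is its brightness in arbitrary units, and a deposited detection p-value compares it with the array's background. A probe was called detected at a detection p under 0.01, which corresponded to signals of at least 190 with vehicle and 180 with DHT. Detected probes numbered 11949 (46.5%) with vehicle and 11734 (45.7%) with DHT. Genes that define skeletal muscle, among them creatine kinase Ckm and skeletal actin Acta1, were detected on both arrays, 8 of 8. Of these, 6 had signals above 40000, close to the top of the scale, on both arrays, so their levels cannot be compared between the arrays. The myosin Myh4 passed 40000 on the DHT array alone, going from 37402 to 44755 (log2 difference 0.41). The myosin Myh1 stayed below 40000 on both arrays and went from 22721 to 14609 (log2 difference -0.47). No member came near the top of the scale: the highest member signals were 13254 with vehicle and 6832 with DHT.

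Of the 70 genes, 33 were detected on at least 1 array and are called measured: 26 on both, 5 with vehicle alone and 2 with DHT alone. The other 37 were detected on neither. Of all 16593 named genes, 8815 were measured, 7971 of them on both arrays, so the number of members measured is not read as a result about them. The split by single array was not counted over all genes, so the 5 and 2 are not read as a result either. All 5 inhibitors were measured, beside 10 of 20 MMPs, 8 of 12 ADAMs expressed outside the germ line, 9 of 16 ADAMTS and ADAMTS-like genes, and 1 of 17 ADAMs known from testis and epididymis. Undetected genes included Adam10, the sheddase that cuts Notch receptors, Mmp8, a neutrophil collagenase, Mmp12, a macrophage elastase, Mmp7, Mmp10, Mmp16, Mmp19, Mmp24, Adam8, Adam28, Adamts8, Adamts12 and Adamts13, the enzyme that trims von Willebrand factor. Of the 37, 7 had a detection p under 0.05 on an array, the nearest being Mmp16 with signals of 188 and 152 and Adam20 with 158 and 179. Absence of detection bounds only what these probes could see.

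**Figure D1:**
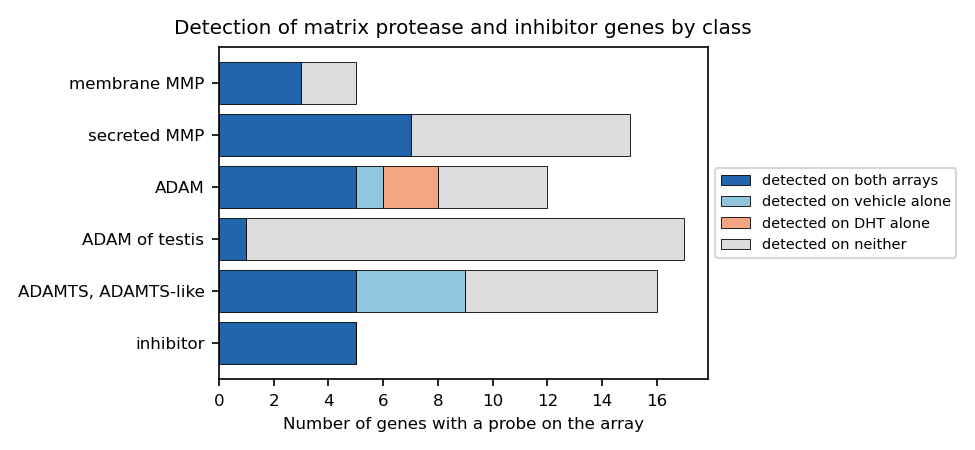
Number of genes on the array in each class (horizontal axis), split by whether a probe of the gene was detected on both arrays, with vehicle or DHT alone, or on neither. All 5 inhibitors and 1 of 17 testis ADAMs were detected.

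Most proteases that differed were lower on the DHT array, while 4 of the 5 inhibitors differed little and Timp4 was higher. After background correction, quantile normalization and log2 transformation, 17 of 33 measured genes were at least 1.5-fold lower (51.5%) and 3 were at least 1.5-fold higher (9.09%). Over all 8815 measured genes on the array, 15.8% were at least 1.5-fold lower and 13.4% higher, 29.2% in all, against 60.6% of the members. The members' median log2 difference, DHT minus vehicle, was -0.60, against -0.01 over all measured genes. At 2-fold, 7 members were lower and 1 higher, where 6.28% and 4.61% of all genes were.

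Those counts depended on which genes entered and on the background. Among the 26 members detected on both arrays, 12 were lower and 3 higher at 1.5-fold, with a median of -0.33, where 13.4% and 12.0% of the 7971 such genes were. Without background correction 7 members were lower and 1 higher, with a median of -0.26, where 8.43% and 6.74% of all genes were. When the corrected arrays were scaled to a common median in place of quantile normalization, 20.6% of all genes were lower and 9.57% higher, and 51.5% and 6.06% of the members. When the 7 members detected on a single array were given the smallest difference their detection allows, 14 members were lower and the median was -0.21. All measured genes treated alike had a median of 0. Their share lower was not counted, so the 14 has no background beside it. The deposited signals themselves were higher on the DHT array for 8 of 33 members. The DHT array was dimmer as a whole, with a median probe signal of 168 against 177 with vehicle. Its total signal was 2.65e+07 against 2.99e+07, so that count is not read as a result about the members.

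**Figure D2:**
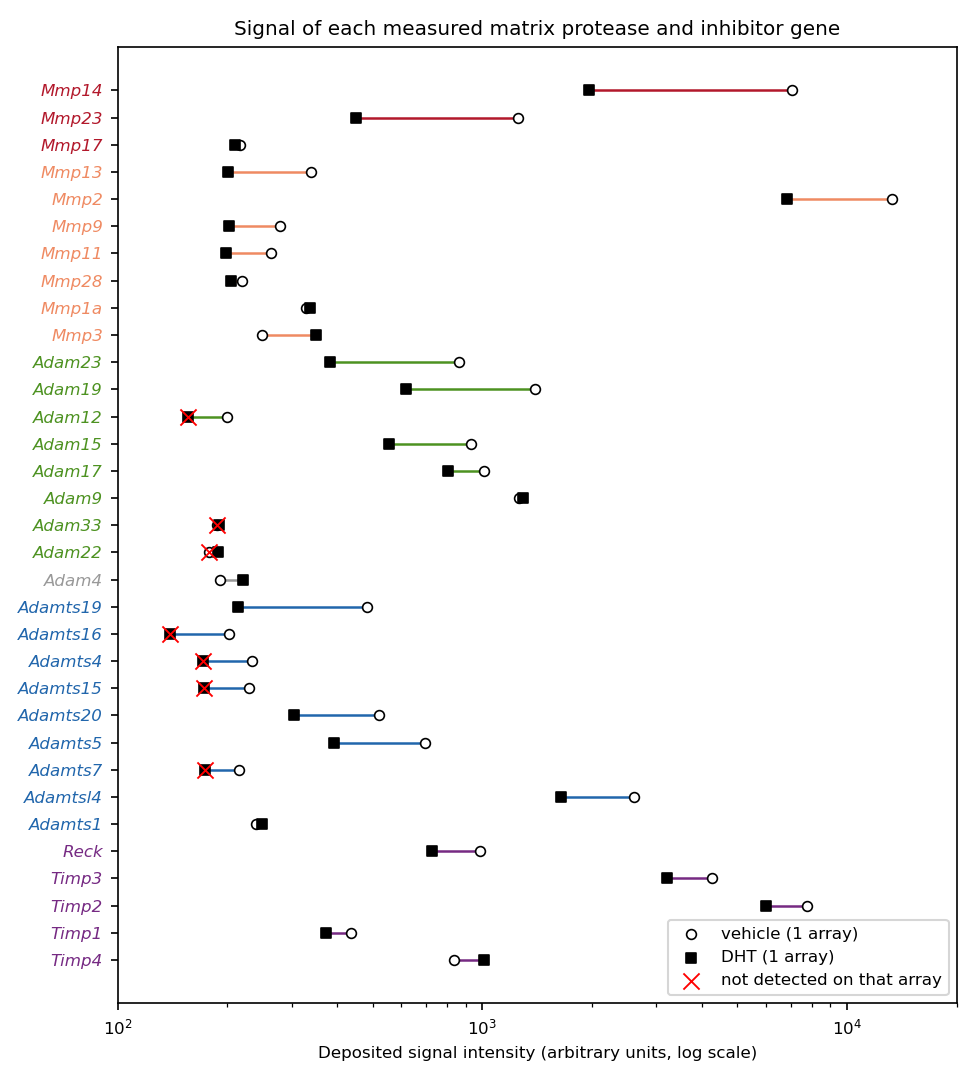
Deposited signal (horizontal log axis, arbitrary units) of the 33 measured genes with vehicle (open circles) and with DHT (filled squares), 1 array each, with gene names coloured by class and crosses where a probe was not detected on that array. Mmp14 goes from 7060 to 1958, and Timp2 from 7781 to 5985.

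The error of a single gene's difference could be judged only from probes within the arrays. Where a gene had several probes detected on both arrays, their log2 differences varied with an SD of 0.26 (1967 genes), and of 0.26 for the 418 whose probes had mean signals under 500. This SD holds no variation between animals. Of the 12 measured members with several probes, all probes were detected for Adamts20, Mmp3, Timp1 and Timp3, and a single probe for the other 8. For genes of a mean signal under 300, 95% of all log2 differences on the array lay between -1.71 and 1.51, and for those of 1000 or more between -1.38 and 1.12, real differences included.

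The membrane-anchored MMPs held the largest MMP differences. Mmp14, which cuts fibrillar collagen at the cell surface and activates the MMP2 precursor, had signals of 7060 with vehicle and 1958 with DHT. That is a 3.22-fold lower value (log2 difference -1.68), and 3.09-fold without background correction. Only 1.92% of measured genes on the array had a more negative difference. Mmp23, a membrane MMP with an unusual cysteine-rich tail, went from 1249 to 451, 2.78-fold lower (2.31-fold uncorrected). The glycolipid-anchored Mmp17 was dim on both arrays, at 216 and 210, with a log2 difference of 0.25, no larger than the SD between probes. Mmp16 and Mmp24 were not detected.

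Among the secreted MMPs, 4 of 7 measured were at least 1.5-fold lower and 1 higher, against 2 lower and 1 higher without background correction. Gelatinase A, Mmp2, the enzyme that the Mmp14 product activates, had signals of 13254 and 6832, 1.71-fold lower, and 1.70-fold without correction. Mmp2 thus differed in the same direction as Mmp14, by a smaller fold. Mmp13, a collagenase of cartilage and bone, went from 339 to 200, 2.32-fold lower, but 1.51-fold uncorrected. Its DHT signal lay close to the lowest detected signals, and its other 2 probes were not detected. The gelatinase Mmp9, stored in neutrophil granules and made by osteoclasts, had signals of 279 and 202, a log2 difference of -0.69, or -0.31 uncorrected. Mmp11, a stromelysin of stromal cells, had 263 and 199, with -0.60 and -0.26.

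Mmp3 went the other way. Stromelysin Mmp3, which cuts proteoglycans and laminin and activates other MMP precursors, had signals of 249 with vehicle and 349 with DHT, 2.31-fold higher (log2 difference 1.21), and 1.59-fold higher uncorrected. Its other probes pointed the same way, with log2 differences of 1.10 and 1.35, the latter from 165, not detected, to 211. Mmp3 was the only member at least 2-fold higher on the corrected scale, and the only 1 at least 1.5-fold higher uncorrected. Its neighbour Mmp1a, a rodent interstitial collagenase, had signals of 330 and 338, a log2 difference of 0.39. The other Mmp1a probe was not detected, at 138 and 136, so the value of Mmp1a is uncertain. The probe of the related gene Mmp1b was not detected either. The third measured gene of the row, Mmp13, was lower, and the promoters printed above share AP-1 and TATA box letters across all of these. Mmp28 (epilysin) was at 219 and 205, and its difference of 0.09 turned to -0.02 under median scaling.

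**Figure D3:**
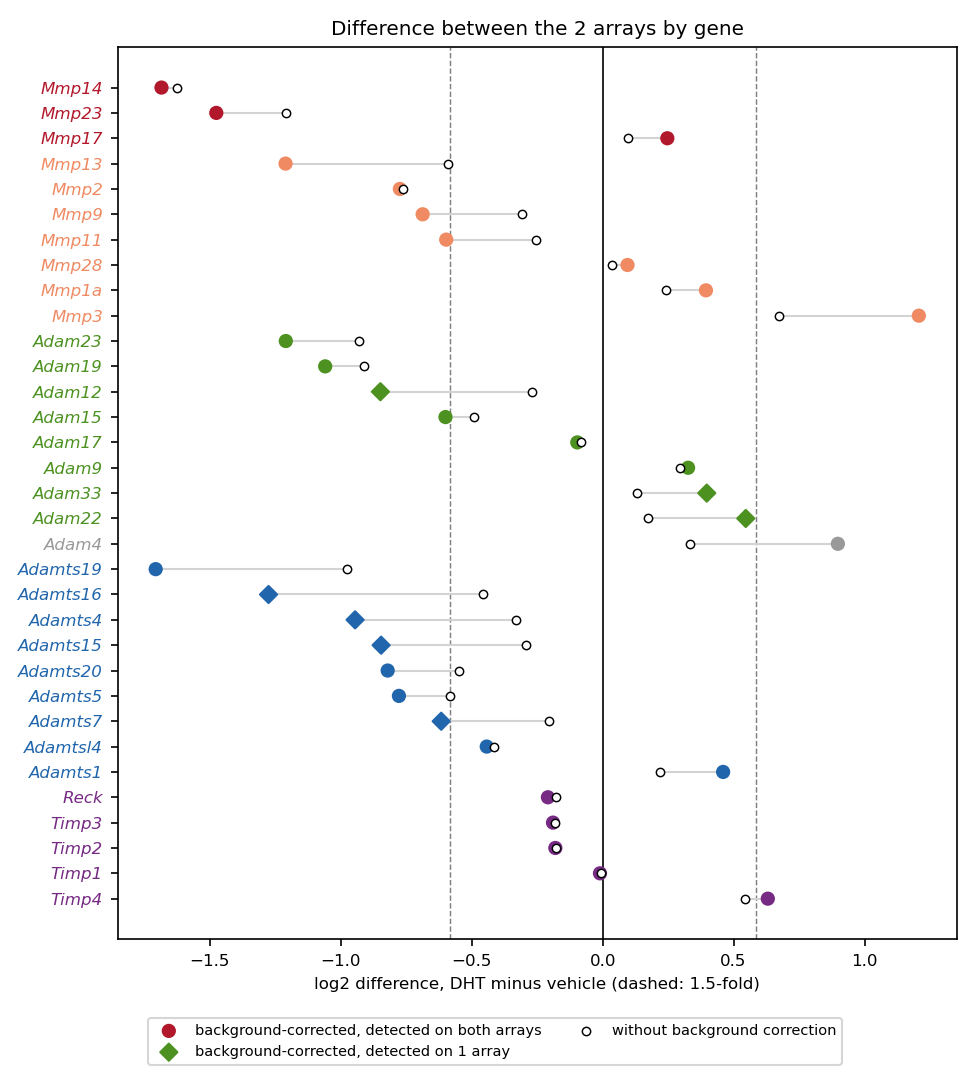
Log2 difference between the DHT and the vehicle array (horizontal axis) of the 33 measured genes, background-corrected (large symbols, diamonds for genes detected on 1 array) and uncorrected (small open circles), with dashed lines at 1.5-fold. Mmp14, Mmp23, Adam19 and Mmp2 lie left of the dashed line on both scales, Mmp3 right of it on both, and Timp1, Timp2, Timp3 and Reck near 0.

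ADAMs of the muscle and its stroma separated. Adam19 (meltrin beta), which sheds neuregulins, had signals of 1391 and 617, 2.08-fold lower on the DHT array and 1.88-fold uncorrected. Adam23, a catalytically inactive adhesion protein of nerve cells, had 860 and 383, 2.31-fold lower and 1.90-fold uncorrected. Its other 2 probes were not detected, at 167 and 134 and at 175 and 139. Adam15, an ADAM of endothelium and other cells, went from 931 to 553, 1.52-fold lower, or 1.41-fold without correction, past the 1.5-fold limit on the corrected scale alone. The other Adam15 probe was not detected, at 183 and 166.

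Adam12 (meltrin alpha), which is made by fusing and regenerating muscle and by fibro-adipogenic cells, was near the limit of detection. Its signals were 199 with vehicle and 156, not detected, with DHT, which bounds it at 1.08-fold lower or more. The broad sheddases differed little. Adam17, which releases tumour necrosis factor, had signals of 1013 and 805 and a log2 difference of -0.10. Adam9 (meltrin gamma) had 1261 and 1288, and 0.33. The inactive Adam22 and the protease Adam33 were detected with DHT alone, at the edge of detection. Adam22 had signals of 179, not detected, and 188, with a log2 difference of 0.55, and was 1.13-fold higher without background correction. Adam33 had 187, not detected, and 190, with a log2 difference of 0.40, and was 1.09-fold higher uncorrected. Neither gene reached 1.5-fold on either scale, so no difference is read from them, although both corrected differences exceeded the SD between probes.

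A single ADAM of the germ line passed detection. Adam4 had signals of 191 with vehicle and 220 with DHT, a log2 difference of 0.90, and 0.33 without correction. Its other 2 probes were not detected at this threshold. Adam4 belongs to a family of similar testis genes whose probes can bind relatives, and its signal on both arrays was close to background.

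The secreted ADAMTS class was lower in 7 of 9 measured members at 1.5-fold and higher in 0, but 4 of the 7 rested on the vehicle array alone. Without background correction only 1 of the 9, Adamts19, was at least 1.5-fold lower. Adamts19, an enzyme whose substrates are little known, had signals of 482 and 214, 3.27-fold lower, the most negative difference of all members on the corrected scale, and 1.97-fold uncorrected. Adamts5, which cuts versican and aggrecan and clears versican from around fusing myoblasts, went from 698 to 393, 1.71-fold lower (log2 difference -0.78, and -0.58 uncorrected). The related versican-cutting Adamts20 had 520 and 304 on the probe used (log2 difference -0.82), and 529 and 286 on its other probe.

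Genes of this class detected on the vehicle array alone had only bounds. Adamts4, an aggrecan-cutting enzyme, had signals of 234 and 171 and was at least 1.61-fold lower on the DHT array. Adamts15, which cuts versican, had 229 and 173, at least 1.54-fold lower. Such bounds hold on the background-corrected scale alone: uncorrected, Adamts4 was 1.26-fold and Adamts15 1.23-fold lower. For Adamts7, which cuts cartilage oligomeric matrix protein, and Adamts16 the bounds were 1.33-fold and 1.13-fold, so their part in the count of 7 rests on values below detection. Adamts1, an enzyme of vessels and ovary that also cuts versican, was the only measured gene of the class with a higher value, at 240 and 249 and a log2 difference of 0.46. The ADAMTS-like protein Adamtsl4, which has no protease domain and binds fibrillin, went from 2610 to 1642, a log2 difference of -0.44. Versican itself (Vcan) and aggrecan (Acan) were not detected, and no difference of these substrates can be given.

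Of the 5 inhibitors, 0 were at least 1.5-fold lower and 1 was higher. Timp2, which binds Mmp14 and so takes part in activating the MMP2 precursor, had signals of 7781 and 5985, a log2 difference of -0.18 after normalization. Timp3, bound to the matrix and an inhibitor of ADAM17 and ADAMTS enzymes as well as MMPs, had 4263 and 3205, and -0.19, with its dimmer probe at -0.03. Timp1, an inhibitor often induced in injury, had 435 and 372, with differences of -0.01 and -0.03 on its 2 probes. Reck, which restrains Mmp2, Mmp9 and Mmp14 at the membrane, had 984 and 730, and -0.21. These 4 differences were all smaller than the SD between probes of a gene.

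Timp4, a TIMP prominent in heart, muscle and fat, had the largest difference of the 5 inhibitors. The signals of its only probe were 837 with vehicle and 1011 with DHT, 1.55-fold higher (log2 difference 0.63), and 1.46-fold uncorrected. Under median scaling the log2 difference was 0.48. Of all measured genes on the array, 88.4% had a lower difference than Timp4. Markers of fat cells were higher beside it, 4 of 4 measured, with summed signals of 2869 and 5578 and Adipoq from 1818 to 3930. Of these, 3 were detected on both arrays, and 3 were at least 1.5-fold higher uncorrected. Plin1 was detected with DHT alone, at 176 and 210, and was 1.29-fold higher uncorrected. Fabp4 and Retn were not detected. The part of fat cell markers in the Timp4 value was not tested. The class medians were -0.18 over the 5 inhibitors, -0.60 over the 7 secreted MMPs, -1.48 over the 3 membrane MMPs, -0.35 over the 8 ADAMs and -0.82 over the 9 ADAMTS genes.

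**Figure D4:**
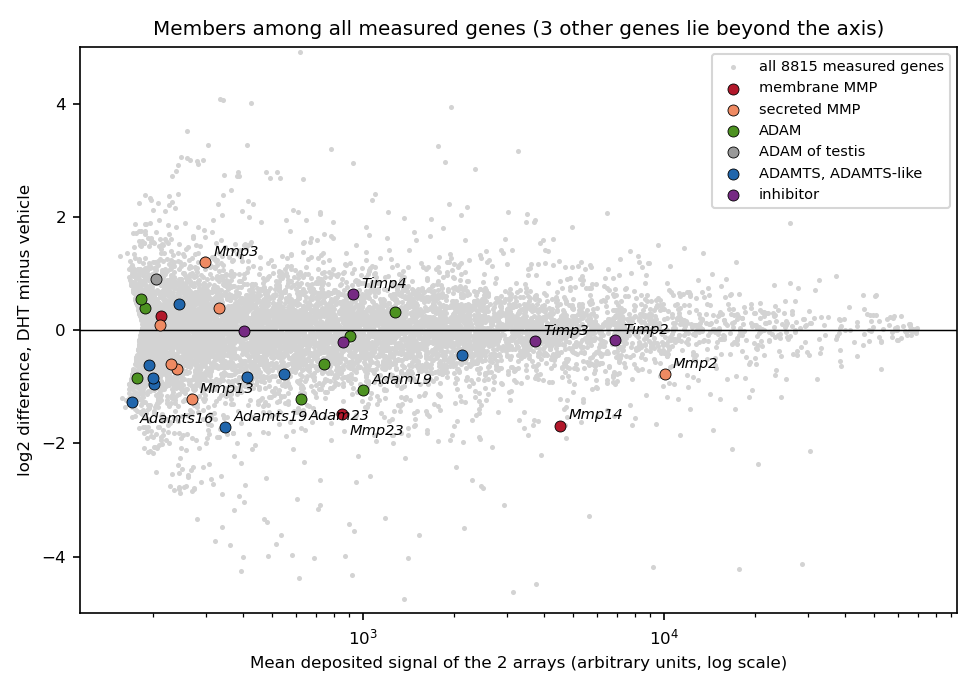
Log2 difference, DHT minus vehicle (vertical axis), against the mean deposited signal of both arrays (horizontal log axis) for all 8815 measured genes (grey) and the 33 members (coloured by class), 3 other genes lying beyond the axis. Mmp14 lies at -1.68 and Mmp2 at -0.77 among genes of high signal, whereas Adamts16 lies at the dim edge.

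Other matrix proteases and the substrates were read from lists of related genes. Of 13 measured genes of plasminogen activation, procollagen processing and other matrix proteolysis, 8 were lower and 2 higher at 1.5-fold, with a median of -0.70. Among the 11 detected on both arrays, 6 were lower and 2 higher, with a median of -0.68. Plau and Hpse were detected with vehicle alone, and with them at the smallest difference their detection allows the median was -0.37. Without background correction 5 were lower and 1 higher, with a median of -0.31. Pcolce, which enhances removal of the procollagen C-terminal piece, went from 3154 to 956 (log2 difference -1.60), and Bmp1, the enzyme that removes it, from 3715 to 1490 (-1.13). The serine protease Htra1 went from 1943 to 712 (-1.34), and the fibroblast protease Fap from 1419 to 570 (-1.24). In contrast, the related Htra3 was higher, from 2068 to 2812 (0.73). The plasminogen activator gene Plat and the receptor Plaur were not detected.

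Cathepsins, the proteases of the lysosome, mostly differed little: of 13 measured cathepsins and cystatins, 2 were lower and 1 higher, with a median of -0.06. The collagen-cutting cathepsin Ctsk was the lowest, from 2507 to 821 (-1.51), followed by legumain Lgmn, from 3739 to 1407 (-1.23). Cathepsin Ctss of antigen-presenting cells was higher, from 229 to 282 (0.97), but 0.47 without background correction, where 0 genes of the list were 1.5-fold higher. Ctsb (-0.06), Ctsc (-0.03) and Ctsd (-0.04) differed by less than the SD between probes.

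Regulators and partners had a median of -0.02 over 14 measured genes, with 4 lower and 0 higher. The precursor convertase Furin, which activates Mmp14 and many ADAMs, had signals of 4389 and 3895 (0.05). The ADAM17 partner Rhbdf1 had 2108 and 1771 (0.00). The 4 lower genes were Thbs2 (-1.45), a matrix protein that promotes the uptake of MMP2 by cells, Spock3 (-1.17), Sparc (-1.17) and the caveolar protein Cav1 (-1.06). Spock3 was dim, and its difference was -0.50 without background correction.

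Most matrix substrates were lower as well. Of 24 measured collagens, laminins and other matrix genes, 21 were lower and 0 higher, with a median of -1.28, and Col1a1, a substrate of Mmp14 and Mmp13, went from 23000 to 6000 (-1.77). The basement membrane chain Col4a1, a substrate of Mmp2 and Mmp9, went from 27913 to 5708 (-2.09). Of 12 measured membrane proteins known to be shed by ADAMs, 7 were lower and 0 higher, with a median of -0.69, among them Cdh5 (-1.78), Kitl (-1.41), Ncam1 (-1.17) and Notch1 (-0.97). Without background correction 5 of these 12 were lower and 0 higher, with a median of -0.50. The heparin-binding growth factor Hbegf was near 0 (-0.02). These lists and the members were compared on 1 array per treatment, so no test of a difference between them is given.

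Markers of stromal and blood cells moved beside these values, and their part in the protease differences was not tested. Summed signals are deposited values that were not normalized. Over all measured genes they were 2.25e+07 with vehicle and 1.97e+07 with DHT. Fibroblast markers, 9 of 9 measured, had summed signals of 111643 with vehicle and 67642 with DHT, with 7 lower, though the fibroblast receptor Pdgfra differed by -0.17. The brightest probe of Dcn lay above 40000 on both arrays and cannot show a difference, and its other probe went from 13464 to 14553 (0.31). Of these 9 genes, 4 are also on other lists. Endothelial markers, 6 of 8 measured, were all lower, with summed signals of 14080 and 5770. Smooth muscle and pericyte markers, 7 of 7 measured, had summed signals of 38301 and 16014, with 4 lower and 1 higher and a median of -0.89, or -0.36 uncorrected. Most of these sums came from the actin Acta2, which went from 35025 to 13782, so they say little of the other genes. Tagln was the higher gene (0.70, and 0.26 uncorrected), and Myh11 (0.33) and Rgs5 (-0.18) differed by less than 1.5-fold. T cell markers were higher on the DHT array: Cd3d, Cd3g and Cd8b1 were detected with DHT alone, Cd8b1 at 311 against 154 with vehicle. The B cell marker Cd79a was detected with vehicle alone (248 and 179), and Cd79b differed by -0.13. Over these 5 lymphocyte markers the summed signals were 1114 and 1300. In a whole muscle, fewer cells of a type and less RNA per cell cannot be told apart.

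Markers of neutrophils, which store Mmp9, and of cartilage and bone, where Mmp13 is made, were lower too, and their part in the values of Mmp9 and Mmp13 was not tested. Of 8 neutrophil markers, 7 were at least 1.5-fold lower, with summed signals of 11100 and 3630 and Ltf from 1653 to 190. Of 8 cartilage and bone markers, 4 were measured, their brightest probes detected on the vehicle array alone, with summed signals of 1283 and 632. The osteoblast gene Bglap went from 513 to 169, at least 5.90-fold lower (2.70-fold uncorrected), and the calcitonin receptor Calcr from 247 to 148, at least 1.81-fold lower (1.55-fold uncorrected). The cartilage collagen Col2a1 went from 331 to 173 on its brightest probe, but another probe was detected on both arrays, at 254 and 186 (log2 difference -0.79). The osteoblast factor Sp7 had 192 and 142, too close to the limit of detection to bound a difference, while Acan, Col10a1, Ibsp and Acp5 were not detected. Macrophage markers, 6 of 8 measured, had summed signals of 8506 and 6851, with 1 lower and 0 higher and a median of -0.19 after normalization.

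**Figure D5:**
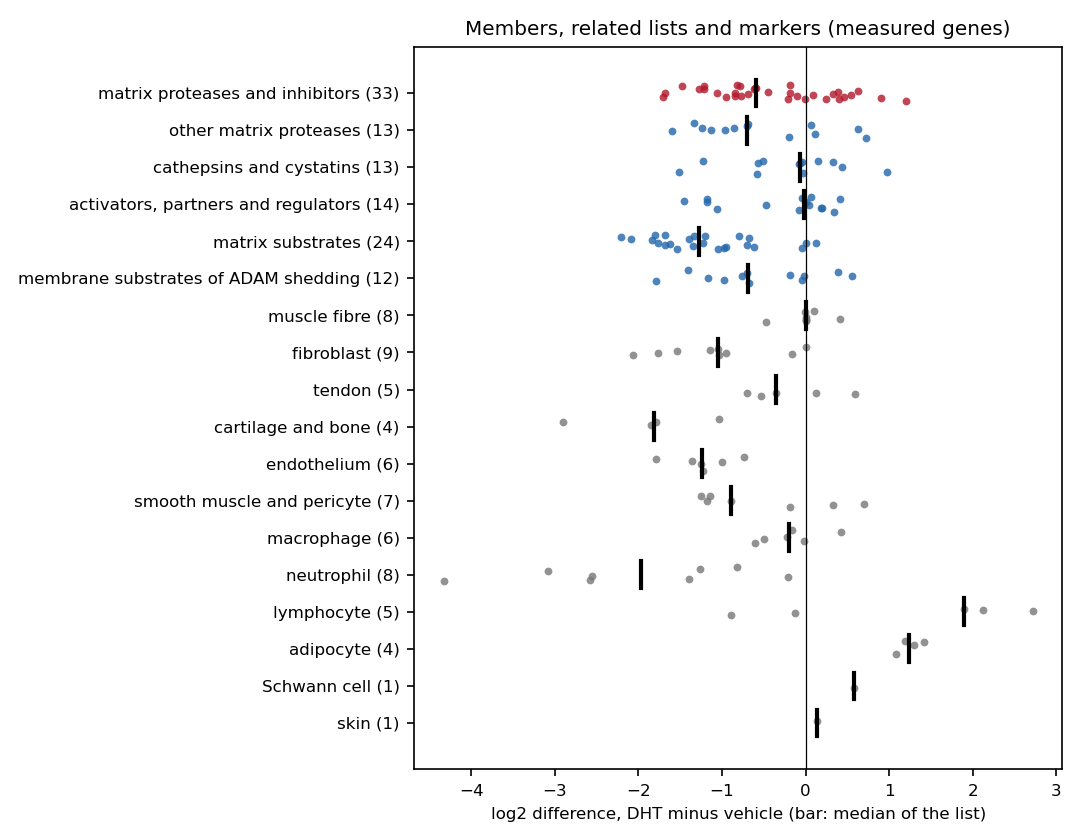
Log2 difference, DHT minus vehicle (horizontal axis), of each measured gene (points) in the members, 5 related lists and 12 marker lists, with black bars at list medians and the number of measured genes in brackets. The members' median is -0.60, that of matrix substrates -1.28, and of adipocyte markers 1.24. Of the 8 muscle fibre markers, 6 lie close to the top of the scale on both arrays and their points near 0 show no level.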

How the data were processed

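Total RNA (0.55 µg) was amplified into biotin-labelled cRNA and read on Illumina bead arrays, per the labels' protocols. The submitters' processing notes name GenomeStudio 2011.1, with no role. The authors deposited a signal intensity for each probe, neither normalized nor background-subtracted as its values show, and detection p-values, named so per the file headers, and series values on a log2 scale, which lay within 0.000654 of quantile normalized log2 signals and had a median of 7.43 in both columns. The genome build behind the authors' probe annotation is not given in the sources used here, and promoter coordinates are those of RefSeq's GRCm38.p6.

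Signals were background-corrected from the detection p-values, given an offset of 16 and quantile normalized with limma 3.58.1 in R 4.3.3 (neqc). That step was tested on simulated data in which only probes well above background were changed, so the test did not cover dim probes. The platform annotation named 23978 probes and left 1719 unnamed (0 had several symbols), and 0 names changed through Entrez identifiers in RefSeq's gene table. The detected probe of highest mean stood for a gene, and every gene of the rule could be named. Bounds set the bright array against the lowest detected value of the other, or the gene's own if higher. Of each related or marker list, up to 4 genes of largest difference are named, with partners of members and a few others chosen after their values were seen. The members and lists were chosen with earlier results of these data known, and the classes, the limits of brightness and the count with members at their bounds after the data were seen. With 1 array per group no test was possible, and the number of arrays limits the precision. Python 3.11.15 with pandas 2.3.3, numpy 2.4.6 and matplotlib 3.10.9 was used for motifs and figures.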

Additional observations from a re-analysis of the deposited data

How the results depend on the processing

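With 1 array per treatment, settings were compared by value, and a log2 median was counted as moved when it shifted by more than the SD between probes of 0.26, and a count when it shifted by more than 1.5 times. No paired analysis was possible because each group has 1 array and the labels give no replicate numbers. Of the 33 measured members, 32 kept their sign under every setting in which they were measured, and Mmp28 did not. The 8 settings were no background correction, an offset of 50, median scaling, the deposited series values, a detection p under 0.05, detection on both arrays, the mean of detected probes, and leaving out probes above 40000. Median scaling shifted the median of all genes to -0.13.

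Without background correction, and likewise with the deposited series values, the members' median was -0.26, with 1 higher and 7 lower at 1.5-fold and 0 and 2 at 2-fold. The class medians were then -0.26 for secreted MMPs, -1.21 for membrane MMPs, 0.33 for the testis ADAM and -0.42 for ADAMTS genes. With an offset of 50, 11 members (33.3%) were lower at 1.5-fold, where 12.5% of all genes were. At that offset 0 members were higher at 2-fold, a share not counted over all genes, and the testis ADAM was at 0.62. With a detection p under 0.05 the medians were -0.20 over 40 members, -0.25 for secreted and -1.10 for membrane MMPs, and with detection on both arrays -0.33 over all members. Leaving out probes above 40000 left 1 muscle fibre marker, Myh1, and moved that list from 0.01 to -0.47. A further setting, chosen after the data were seen, gave members detected on 1 array the smallest difference their detection allows, and moved the members' median to -0.21. The lymphocyte marker median, 1.90, turned to -0.13 among genes detected on both arrays. Correction enlarges differences of dim probes by construction, so values of genes with signals near 200 are the least certain.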
